A study of Mus musculus with 40 samples.

Results

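Duodenum from mice given hexavalent chromium, Cr(VI), was compared directly with duodenum from mice given captan, a fungicide, at the higher of its doses in the series. The members are the 7 libraries labelled as Cr(VI) at 180 ppm and the 7 labelled as captan at 12000 ppm, 14 of the 40 libraries in all, taken by their labelled treatment. Every library came from male wildtype B6C3F1 mice, a hybrid laboratory strain, kept at Charles River Laboratories. Cr(VI) was dissolved in the drinking water and captan was mixed into the diet, each for 28 days, so the agent, the route and the ppm value all differ between the groups. A group of 5 libraries labelled only as control is given beside them; a single control group stands for both routes. No dose per body weight and no age is in the labels. Sections of formalin-fixed, paraffin-embedded duodenum, where the small intestine begins, were scraped off slides and read with TempO-Seq. In that assay pairs of short DNA probes are joined on their transcript, amplified and sequenced, here with 3045 probes. Whether the 7 libraries of a group are 7 mice is not in the labels, and the p-values cover the variation among libraries, part of which may be technical.

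Cr(VI) and captan are both known for tumours of the mouse small intestine that follow damage to the villi and renewed growth from the crypts. Captan reacts quickly with thiols such as glutathione, and Cr(VI) is reduced inside cells by ascorbate and thiols. Thiol-reactive compounds release the transcription factor NRF2 from its inhibitor KEAP1, and NRF2 then drives genes for glutathione synthesis, glutathione transferases and quinone reductases; the nuclear receptor CAR drives cytochrome P450 genes for the clearance of foreign compounds. The direct contrast asks which transcripts separate the exposures, as distinct from those that both shift away from control.

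The Cr(VI) libraries held 3787561 to 7904819 counts (median 4708201) and the captan libraries 3168180 to 6109418 (median 3536592), with 1923 to 2225 and 2127 to 2357 probes above 0. Enterocyte transcripts, which define the labelled tissue, were present throughout: the summed level of 10 tested genes ran from 67935 to 87522 CPM (counts per 1e6, scaled by TMM) after Cr(VI) and from 66892 to 94566 after captan. Pancreatic acinar transcripts, mostly digestive enzymes of a neighbouring organ, stood apart between the groups. By replicate from 1 to 7 the 18 acinar genes took 47.3, 67.7, 82.2, 53.8, 4.95, 46.8 and 71.8% of the counts after Cr(VI). The same genes took 2.02, 8.08, 1.67, 2.32, 1.33, 12.7 and 54.5% after captan, and 21.6 to 78.6% in control. Cr(VI) replicate 5 thus lay in the range of most captan libraries, and captan replicate 7 in the range of most Cr(VI) libraries. These 2 libraries are quoted by themselves below. In captan replicates 1, 3 and 5 nearly all acinar counts were Zg16, which gut goblet cells also make, and Reg1. Replicate 1 had 70494 and 16240 of them among 4336995 counts, and none of Prss1. The low shares of such libraries need not come from pancreas. In bulk tissue, fewer cells of a type and less RNA per cell cannot be told apart.

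Of 2541 probes tested, 118 (4.64%) differed between Cr(VI) and captan at an adjusted p under 0.05 (edgeR quasi-likelihood test, Benjamini-Hochberg); a probe below that threshold passed, or was called. After Cr(VI), 38 of them (1.5%) were higher and 80 (3.15%) were lower. By gene, counting 1 probe for each, 38 of 2328 were higher and 78 lower, and the median log2 fold change over all tested genes was -0.07. For 35 probes (1.38%) the highest library of one group lay below the lowest of the other, and 29 of these were among the 118. Against the shared control libraries, 151 probes (5.94%) passed after Cr(VI) and 157 (6.18%) after captan. Scaling by library totals alone, which takes the acinar transcripts into the denominator, moved the median of all probes to -0.78 and gave 8 higher and 496 lower calls. All values below are therefore relative to the TMM scaling unless another is named.

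**Figure D1:**
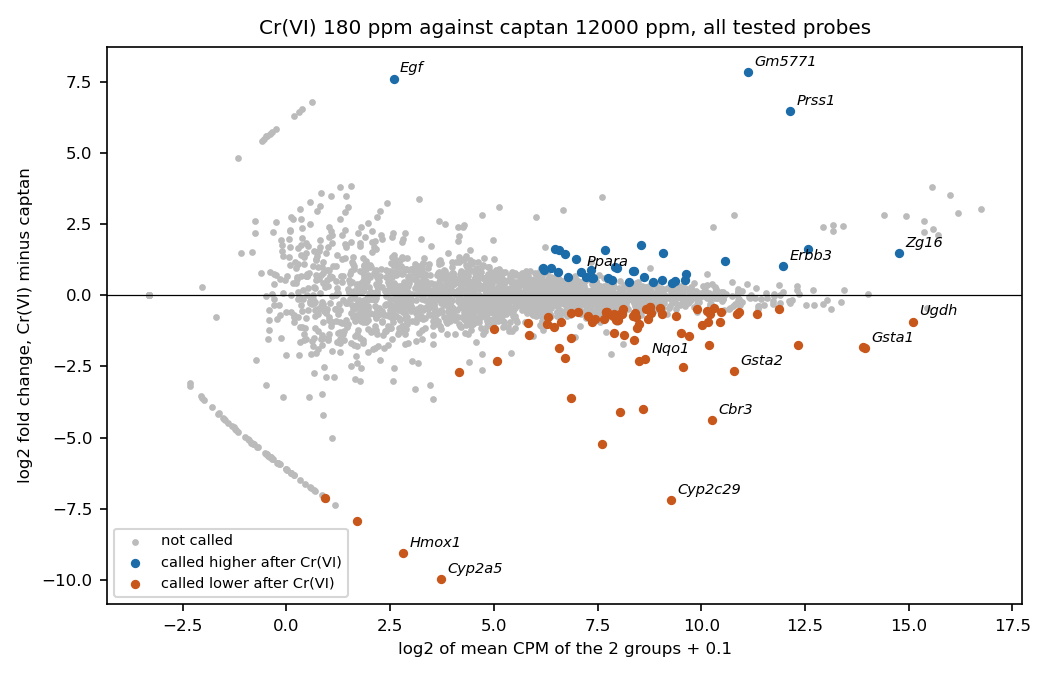
Log2 fold change (Cr(VI) minus captan) of 2541 probes against the log2 of the mean CPM of both groups; blue points were called higher and orange points lower after Cr(VI), grey points were not called. The 80 lower calls include the detoxification genes Cyp2c29, Cbr3, Gsta1, Gsta2, Nqo1 and Ugdh, and the largest rises among calls are Gm5771, Egf and Prss1; the arcs at low level are probes at or near 0 in one group.

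Genes of 5 detoxification lists made up 25 of the 78 genes called lower after Cr(VI). The lists cover glutathione synthesis, glutathione transferases, quinone and carbonyl enzymes, antioxidant genes, and P450s with glucuronosyltransferases and transporters. Over the 5 lists of such genes 25 of 92 distinct tested genes (27.2%) were called lower after Cr(VI), none was called higher, and the median log2 fold change was -0.47, against -0.07 over all tested genes and 3.15% of probes called lower. The lists were drawn up with earlier results of these data known, so the counts are a description. Called genes serve cystine uptake and glutathione synthesis, glutathione transfer, quinone and carbonyl reduction, epoxide and ester hydrolysis, and P450 oxidation with glucuronidation.

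Glutathione supply came first. Slc7a11, the cystine importer that feeds glutathione synthesis, lay between 0 and 31 CPM after Cr(VI) (median 4.72) and between 7.23 and 1142 CPM after captan (median 276). Captan replicates 1 and 2 stayed within the Cr(VI) range, and the other 5 captan libraries lay above all Cr(VI) libraries, from 53.2 CPM. The log2 fold change was -5.21 ± 1.10 with adjusted p = 0.00322; the error after ± is the standard error throughout. Gclc, the catalytic subunit of glutamate-cysteine ligase, ranged from 8.26 to 17.1 CPM after Cr(VI) (median 10.1) and from 20.3 to 93.2 CPM after captan (median 50.5). Here the groups did not overlap, and the log2 fold change was -2.31 ± 0.52 with adjusted p = 0.00334. Gsr, which regenerates glutathione from its disulfide, ran from 266 to 769 CPM after Cr(VI) (median 529) and from 817 to 2743 CPM after captan (median 2069). That gap left no overlap either, at -1.75 ± 0.28 log2 and adjusted p = 0.000135. With Cth, which makes cysteine, at -0.49 ± 0.15 log2 and adjusted p = 0.0453 (a call lost on leaving out any 1 of 7 of the 14 libraries), 4 of 10 tested genes of this list were lower and none higher, with a list median of -0.49.

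Among the glutathione transferases, which attach glutathione to electrophiles, 5 of 11 tested genes were lower after Cr(VI), none was higher, and the list median was -1.32. Gsta2 lay between 237 and 729 CPM after Cr(VI) (median 442), between 598 and 5249.9 CPM after captan (median 3821) and between 104 and 388 CPM in control. Its log2 fold change was -2.66 ± 0.43, a 6.3-fold difference, with adjusted p = 0.000153. Captan replicate 2, at 598 CPM, lay within the Cr(VI) range and replicate 1, at 737 CPM, just above it, and the next lowest was replicate 6 at 1841 CPM. Gsta1 (-1.84 ± 0.33 log2), Gm3776 (-1.83 ± 0.35) and Gstm3 (-2.30 ± 0.44) followed, with adjusted p = 0.000466, 0.00113 and 0.000882. Gsta1, Gsta2 and Gm3776 are near-identical copies, as are the Gstm genes, so the probes may not separate them.

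Quinone and carbonyl enzymes were next. Cbr3, a carbonyl reductase, ranged from 54.8 to 187 CPM after Cr(VI) (median 117), from 154 to 4084 CPM after captan (median 3131) and from 67.2 to 192 CPM in control. Only captan replicate 2, at 154 CPM, lay within the Cr(VI) and control ranges, and replicate 1 lay just above them at 293 CPM. The difference was -4.38 ± 0.57 log2, or 20.8-fold, with adjusted p = 1.51e-05. Nqo1, the quinone reductase often used to read NRF2 activity, ranged from 90.8 to 192 CPM after Cr(VI) (median 137) and from 148 to 1093 CPM after captan (median 919.8). Captan replicate 2 fell within the Cr(VI) range and replicates 1 and 6 were above it, at 222 and 288 CPM. The log2 fold change was -2.23 ± 0.38 with adjusted p = 0.000323.

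Ces1g, a carboxylesterase of the intestine and liver, ran from 9.94 to 65.5 CPM after Cr(VI) (median 48) and from 33.7 to 1409 CPM after captan (median 849), at -3.98 ± 0.64 log2 and adjusted p = 0.000135. Ephx1, the microsomal epoxide hydrolase, ran from 163 to 327 CPM after Cr(VI) (median 212) and from 171 to 2619 CPM after captan (median 1596), at -2.52 ± 0.47 log2 and adjusted p = 0.00082. For both genes captan replicates 1 and 2 were inside the Cr(VI) range and the other 5 captan libraries were above it. In the list of these enzymes 7 of 16 tested genes were lower and none higher, with a median of -0.78. The other members called, given after their values were seen, were the retinaldehyde dehydrogenase Aldh1a1 (-1.83 ± 0.37 log2), the aldo-keto reductase Akr1b10 (-1.40 ± 0.32) and Ugdh (-0.92 ± 0.26), which makes the sugar donor for glucuronidation.

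Among antioxidant genes 3 of 21 were lower, none was higher, and the median was -0.18. Osgin1, an oxidative stress-induced growth inhibitor, lay between 131 and 215 CPM after Cr(VI) (median 163) and between 203 and 746 CPM after captan (median 555). The ranges touched at captan replicate 2 alone, and the log2 fold change was -1.58 ± 0.24 with adjusted p = 3.54e-05. Srxn1, sulfiredoxin, which repairs oxidised peroxiredoxins, differed by -1.31 ± 0.28 log2 with adjusted p = 0.00334. Hmox1, haem oxygenase, had no counts in any Cr(VI) library, none in captan replicates 1 and 2, and 126, 72, 73, 17 and 133 counts in captan replicates 3 to 7, while 1 of 5 control libraries had 35. It passed at adjusted p = 0.012, and no fold is given because the Cr(VI) group was at 0 throughout. Cat, catalase, was 1171 to 1675 CPM after Cr(VI) and 1428 to 2402 CPM after captan and missed the threshold (-0.45 ± 0.15 log2, 95% interval -0.75 to -0.16, adjusted p = 0.0593).

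**Figure D2:**
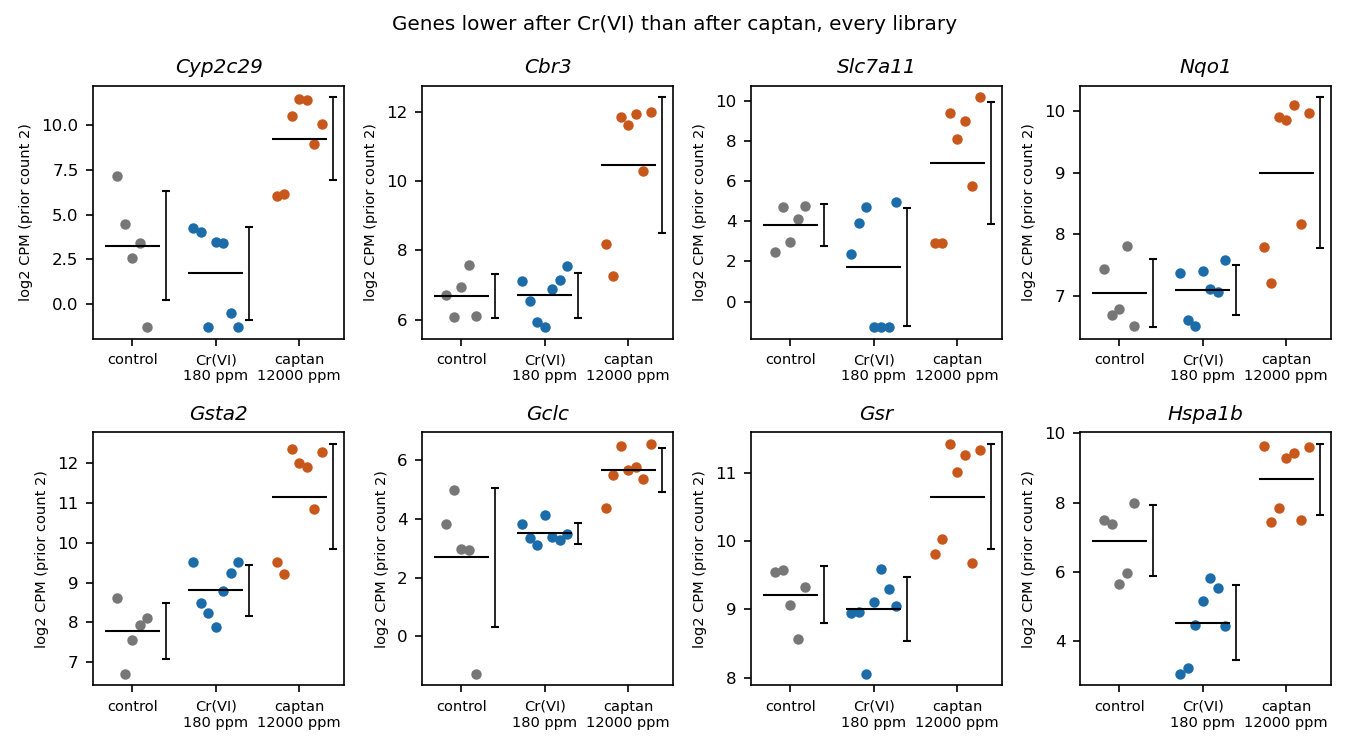
Log2 CPM (prior count 2) of 8 genes lower after Cr(VI) than after captan; each point is 1 library, the line is the group mean and the bar beside it the SD (control n = 5, others n = 7). Within the captan group 2 libraries lie near the Cr(VI) and control points in the Cbr3, Nqo1 and Slc7a11 panels, while for Gclc, Gsr, Cyp2c29 and Hspa1b the Cr(VI) and captan points do not overlap.

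Some P450 and glucuronosyltransferase genes were also lower after Cr(VI), 6 of 34 tested in their list. Cyp2c29, a P450 induced by CAR activators, ran from 0 to 18.9 CPM after Cr(VI) (median 10.2), from 64.7 to 2812 CPM after captan (median 1052) and from 0 to 140.1 CPM in control. The groups did not overlap, with the 2 lowest captan libraries, replicates 1 and 2, at 64.7 and 69.9 CPM. The log2 fold change was -7.21 ± 1.02 with adjusted p = 3.01e-05. Cyp2b10, the textbook CAR target, ran from 1645 to 2788 CPM after Cr(VI) (median 2374) and from 2432 to 13419 CPM after captan (median 10019). Captan replicates 1 and 2 were inside the Cr(VI) range, replicate 6 was at 4226 CPM and the remaining 4 were at 10019 CPM or more, giving -1.75 ± 0.32 log2 and adjusted p = 0.000566.

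Cyp2a5 had no counts in any Cr(VI) or control library or in captan replicates 1 and 2, and 187, 29, 397, 33 and 169 counts in captan replicates 3 to 7, and it passed at adjusted p = 0.000693. The glucuronosyltransferase Ugt2b35 differed by -1.42 ± 0.27 log2 with adjusted p = 0.000745. In this list, which also holds transporters, none was higher, and the median was -0.54. Cyp2c, Cyp2a and Ugt2b genes belong to families of close copies and are uncertain as single genes. Nr1i3, which encodes CAR, was 408 to 719 CPM after Cr(VI) and 656 to 903 CPM after captan and did not pass (-0.47 ± 0.15 log2, interval -0.78 to -0.16, adjusted p = 0.0635). Por, the reductase that supplies P450s with electrons, was level between the exposures at 280.2 to 477 and 297 to 515 CPM (0.00 ± 0.17 log2, interval -0.34 to 0.35). Against 115 to 204 CPM in control, Por was higher after each of them by 1.22 log2.

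The captan libraries were not alike in this gene group. The 25 genes counted below were called from these same libraries, so captan values above Cr(VI) are built in. The counts only describe how the captan libraries differ among themselves. Of the 25 detoxification genes called lower after Cr(VI), captan replicates 3, 4 and 7 exceeded the highest Cr(VI) library for all 25. Replicate 5 did so for 23, replicate 6 for 20, replicate 1 for 10 and replicate 2 for 5. Replicate 2 was the lowest captan library, or tied for lowest, in 16 of the 25 genes and replicate 1 in 8. Set against the highest control library, replicates 1 and 2 were above it for 7 and 6 genes, and replicates 3, 4 and 7 for all 25. Leaving out either replicate 1 or replicate 2 ended no call among the named genes of these lists. Captan replicate 7, with 54.5% acinar counts, and captan replicate 3, with 1.67%, were both above every Cr(VI) library for all 25. The part of the acinar share in these values was not tested.

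On the Cr(VI) side, replicate 5, with 4.95% acinar counts, had 117 CPM of Cbr3, 137 CPM of Nqo1 and 442 CPM of Gsta2. It had 10.2 CPM of Cyp2c29 and 10.1 CPM of Gclc. These values were all within the range of the other Cr(VI) libraries, but not every called gene of these lists was. In replicate 5 Gsr was the highest of the Cr(VI) group, at 769 CPM, below the lowest captan library at 817 CPM. Srxn1 was also highest there, narrowly above replicate 4. Ces1g was the lowest of the group in replicate 5, at 9.94 CPM, away from the captan libraries. With the acinar percentage as a covariate the lists gave 4, 3, 4, 2 and 4 lower calls in place of 5, 4, 7, 3 and 6, in the order glutathione transferases, glutathione synthesis, quinone and carbonyl enzymes, antioxidant genes and P450 list. Without the 5 Cr(VI) and captan libraries above 50% acinar counts, which left 3 Cr(VI) and 6 captan libraries, they gave 0, 1, 2, 1 and 2 lower calls, with list medians of -1.23, -0.34, -0.69, -0.20 and -0.43.

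Each exposure was also set beside control, with the reminder that both contrasts use the same 5 control libraries. After Cr(VI), Cbr3, Nqo1, Ephx1, Gclc and Gsr lay within 0.20 log2 of control, and none of them passed. After captan they were higher than control by 4.40 ± 0.66, 2.23 ± 0.44, 2.55 ± 0.54, 2.19 ± 0.58 and 1.55 ± 0.32 log2, and all passed. The alpha-class transferases were above control after each agent in their estimates, Gsta1 by 0.74 ± 0.36 log2 after Cr(VI) (adjusted p = 0.233) and by 2.58 ± 0.39 after captan (adjusted p = 2.9e-05). Ugdh passed after both, at 0.97 ± 0.29 and 1.89 ± 0.30 log2, with 9017 to 20869.8 CPM in control, 17213 to 36765 after Cr(VI) and 18512 to 63932 after captan. Ugt2b35 went the other way after Cr(VI), at -0.95 ± 0.28 log2 against control with adjusted p = 0.0383.

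**Figure D3:**
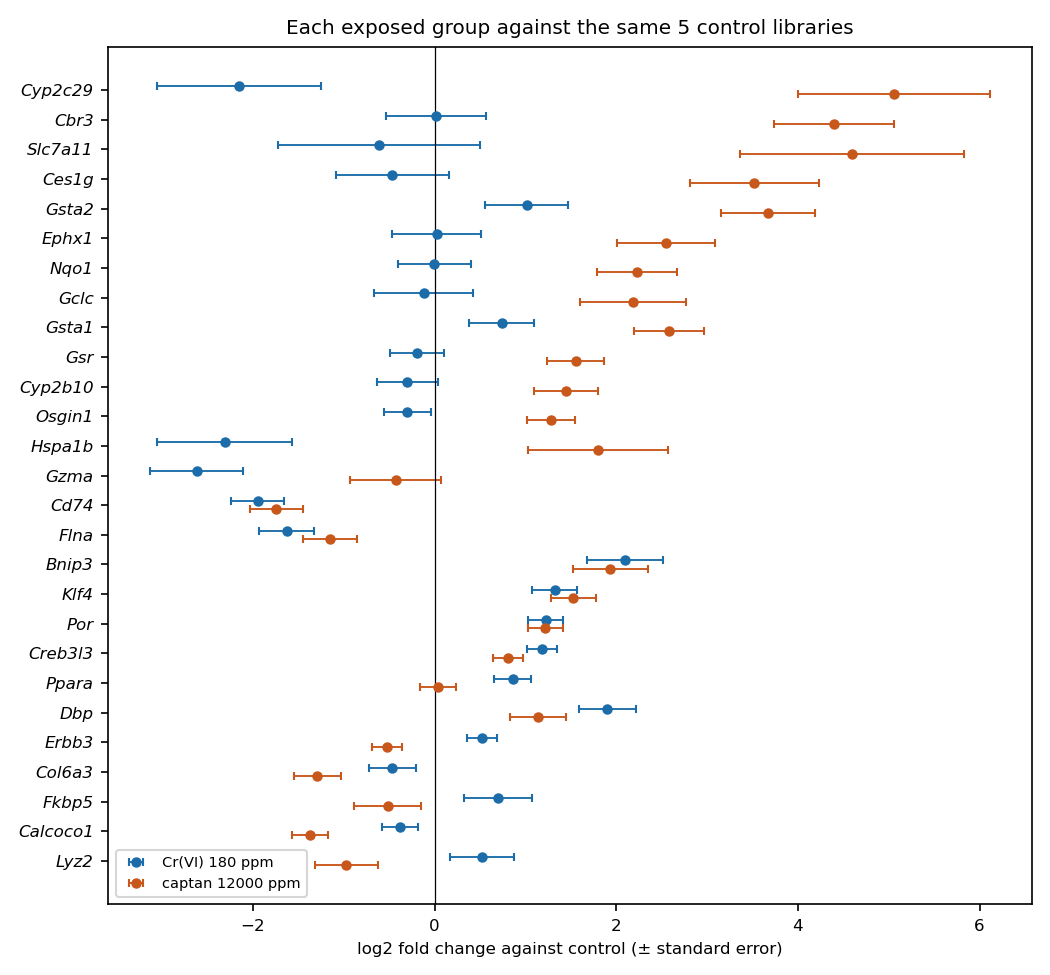
Log2 fold change against control (± standard error) after Cr(VI) (blue) and after captan (orange) for 27 named genes; both contrasts share the 5 control libraries. Detoxification genes such as Cbr3 (0.02 after Cr(VI), 4.40 after captan) separate the agents, whereas Bnip3 (2.10 and 1.94), Klf4 (1.32 and 1.53), Por and Cd74 (-1.95 and -1.74) lie at similar places for both.

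The promoters of the called genes were searched for the core of the antioxidant response element, the site that NRF2 binds, as TGACNNNGC on either strand. The windows run from 250 bases before to 50 after the RefSeq start (GRCm38.p6). A match was present for 12 of 58 genes with a window among those lower after Cr(VI) (20.7%) and for 5 of 30 among those higher (16.7%). It was present for 284 of 1743 among all tested genes (16.3%) and for 3781 of 27025 of all genes in the table (13.99%). For comparison ACGTG, the core bound by hypoxia-inducible factors, was present for 9 of 58 (15.5%), 8 of 30 (26.7%), 478 of 1743 (27.4%) and 5886 of 27025 (21.8%). These shares are descriptions, and a match is not a bound site.

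Igtp, Pgrmc1 and Ugdh had the largest differences among those of the 12 with a whole match before every annotated start. Srxn1 and Cyp2c65, of the detoxification lists, had a match, but not wholly before the start. Ugdh and Pgrmc1 are shown because both serve detoxification: Pgrmc1 encodes a haem-binding membrane protein that partners P450 enzymes. Both were chosen after their values were seen. Pgrmc1 ran from 596 to 795 CPM after Cr(VI) (median 673) and from 682 to 1899 CPM after captan (median 1686), at -1.04 ± 0.19 log2 and adjusted p = 0.000283. The stretches lie upstream of the start, for Pgrmc1 at chrX:36597943-36598192 on the plus strand and for Ugdh at chr5:65435950-65436092 on the minus strand. Each is written 5′ to 3′ along the gene, with the match in capitals.
Pgrmc1: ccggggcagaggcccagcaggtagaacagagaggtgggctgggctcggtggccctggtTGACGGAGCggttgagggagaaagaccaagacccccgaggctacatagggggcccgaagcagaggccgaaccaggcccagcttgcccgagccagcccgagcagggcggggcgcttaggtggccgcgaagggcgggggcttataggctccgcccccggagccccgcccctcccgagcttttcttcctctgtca
Ugdh: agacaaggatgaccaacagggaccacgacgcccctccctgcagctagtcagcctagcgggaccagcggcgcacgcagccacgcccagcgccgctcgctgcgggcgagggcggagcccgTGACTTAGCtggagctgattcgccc
The match shown begins 192 bases before the RefSeq start in Pgrmc1 and 132 bases before it in Ugdh. The searched Ugdh window holds 2 matches, and the other lies nearer the start, past the end of the stretch shown. Both matches shown read the core in the direction of the gene.

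Of 25 tested genes for chaperones and proteasome subunits 7 were lower after Cr(VI) and 1 was higher, with a median of -0.43, where 3.15% of all probes were lower and 1.5% higher. Hspa1b, an inducible Hsp70 whose twin Hspa1a is nearly the same in sequence, lay between 8 and 56.6 CPM after Cr(VI) (median 21.7), between 175 and 793 CPM after captan (median 622) and between 49.8 and 255 CPM in control. All 7 captan libraries were above all 7 Cr(VI) libraries, at -4.11 ± 0.76 log2 and adjusted p = 0.000693. Neither exposure passed against control for this gene: the estimates were -2.31 ± 0.75 log2 after Cr(VI) (adjusted p = 0.0585) and 1.80 ± 0.77 after captan (adjusted p = 0.173). The estimates thus lay on opposite sides of control.

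Psmd14, a deubiquitinase of the proteasome lid, ran from 51.3 to 144 CPM after Cr(VI) (median 122) and from 179 to 251 CPM after captan (median 219.9). The ranges did not overlap, and the difference was -0.94 ± 0.19 log2 with adjusted p = 0.00113. Among genes given after their values were seen, the proteasome subunits Psmd8 (-0.48 ± 0.13 log2) and Psmc4 (-0.42 ± 0.12) were lower as well, at adjusted p = 0.0185 and 0.0222. The Hsp90 co-chaperone Fkbp4 (-0.54 ± 0.12 log2), Hsp90aa1 (-0.64 ± 0.17) and Hsp90ab1 (-0.45 ± 0.13, also given after its value was seen) were the other lower calls, at adjusted p = 0.00324, 0.013 and 0.0378. For Fkbp4 and the more abundant Hsp90aa1 probe the captan mean was near control (-0.05 and 0.07 log2). The Cr(VI) group was below control for both (-0.59 ± 0.13 and -0.58 ± 0.18 log2, both passing). For Psmd8 and Psmc4 the reverse held: Cr(VI) was near control (-0.03 and -0.01 log2) and captan above it (0.44 ± 0.14 and 0.41 ± 0.13 log2, both passing). The other Hsp90aa1 probe was placed as these were, at 0.05 ± 0.43 log2 against control after Cr(VI) and 1.12 ± 0.44 after captan. Neither value passed, nor did its direct difference of -1.07 ± 0.39 log2. With the acinar covariate the list gave 2 lower calls and a median of -0.41, and without the libraries above 50% acinar counts 1 and -0.33.

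Of 20 tested genes of the unfolded protein response 1 was lower and 2 were higher after Cr(VI). Over all probes 3.15% were called lower and 1.5% higher. Atf4, the gene called lower, which is translated under amino acid and endoplasmic reticulum stress, lay between 114 and 217 CPM after Cr(VI) (median 189.8) and between 265 and 355 CPM after captan (median 279). The groups did not overlap, at -0.74 ± 0.18 log2 and adjusted p = 0.00607. Herpud1 and Sel1l of endoplasmic reticulum-associated degradation were called higher after Cr(VI), at 0.76 ± 0.18 and 0.88 ± 0.26 log2 with adjusted p = 0.00687 and 0.0309. With the acinar percentage as a covariate Herpud1, Sel1l and Atf4 came to 0.29, 0.10 and -0.50 log2, and without the libraries above 50% acinar counts to 0.43, 0.65 and -0.80, and none passed in either. Scaling by library totals gave -0.16 for Herpud1. Sel1l was also lost on leaving out any 1 of 7 of the 14 libraries, and Herpud1 on leaving out Cr(VI) replicate 3.

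Few cell cycle genes passed. Of 75 tested proliferation genes 59 had negative log2 fold changes, the median was -0.48, and 2 were called lower, beside 1282 negative of 2328 tested genes, a median of -0.07 and 3.15% of probes called lower over all. Plk1, a mitotic kinase, lay between 21.7 and 66.8 CPM after Cr(VI) (median 31.8) and between 54.2 and 109 CPM after captan (median 68.1), with overlap in Cr(VI) replicates 1 and 5 only. Rrm1, the large subunit of ribonucleotide reductase, lay between 109 and 233 and between 224 and 318 CPM. The log2 fold changes were -0.99 ± 0.28 and -0.57 ± 0.16, with adjusted p = 0.0244 and 0.0281, and the calls were lost on leaving out any 1 of 5 (Plk1) or 4 (Rrm1) of the 14 libraries. Against control both were lower after Cr(VI) (-1.14 ± 0.30 and -0.56 ± 0.18 log2, both passing) and near control after captan (-0.15 and 0.01 log2). Mki67, the usual proliferation marker, was low in every group and did not pass (-0.36 ± 0.52 log2, interval -1.41 to 0.70).

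Trp53, which encodes p53, differed by -0.64 ± 0.19 log2 with adjusted p = 0.0311, lost on leaving out any 1 of 7 libraries. It was the only call among 22 genes of its list, whose median was 0.14, beside 3.15% of all probes called lower. Its target Cdkn1a was 309 to 398 CPM after Cr(VI) and 170.01 to 441 CPM after captan and did not differ detectably (-0.09 ± 0.16 log2, interval -0.42 to 0.25). With the acinar covariate, or without the libraries above 50% acinar counts, no gene of the proliferation or p53 lists passed. The values in these settings were -0.95 and -0.52 log2 for Plk1, -0.63 and -0.37 for Rrm1 and -0.52 and -0.47 for Trp53, and the proliferation median was -0.40 and -0.52.

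Lipid and sterol synthesis gave 2 lower calls of 19 tested genes and a median of -0.35, beside -0.07 over all tested genes and 3.15% of probes called lower. Sqle, squalene epoxidase, lay between 29.1 and 91.9 CPM after Cr(VI) (median 49.6) and between 55.2 and 198 CPM after captan (median 122), at -1.13 ± 0.29 log2 and adjusted p = 0.0133, a call lost without captan replicate 4. Acat2, an acetoacetyl-CoA thiolase, differed by -0.87 ± 0.21 log2 with adjusted p = 0.00777. Dusp6, a phosphatase that limits ERK signalling, lay between 164 and 255 CPM after Cr(VI) (median 228) and between 191 and 668 CPM after captan (median 507). Only captan replicate 6, at 191 CPM, fell in the Cr(VI) range, at -1.13 ± 0.26 log2 and adjusted p = 0.00528. Ereg, an EGF receptor ligand, had no counts in any Cr(VI) library, and 31, 16, 118, 32 and 15 counts in captan replicates 1, 2, 4, 5 and 7, and passed at adjusted p = 0.0269, though not without Cr(VI) replicate 7 or captan replicate 4. Control libraries held 54, 61 and 13 counts of it in replicates 2 to 4 and none in the others. Sqle, Acat2, Dusp6 and Ereg did not pass with the acinar covariate or without the libraries above 50% acinar counts. The values there were -0.92 and -1.29 log2 for Sqle, -0.69 and -0.53 for Acat2, and -0.80 and -1.04 for Dusp6.

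**Figure D4:**
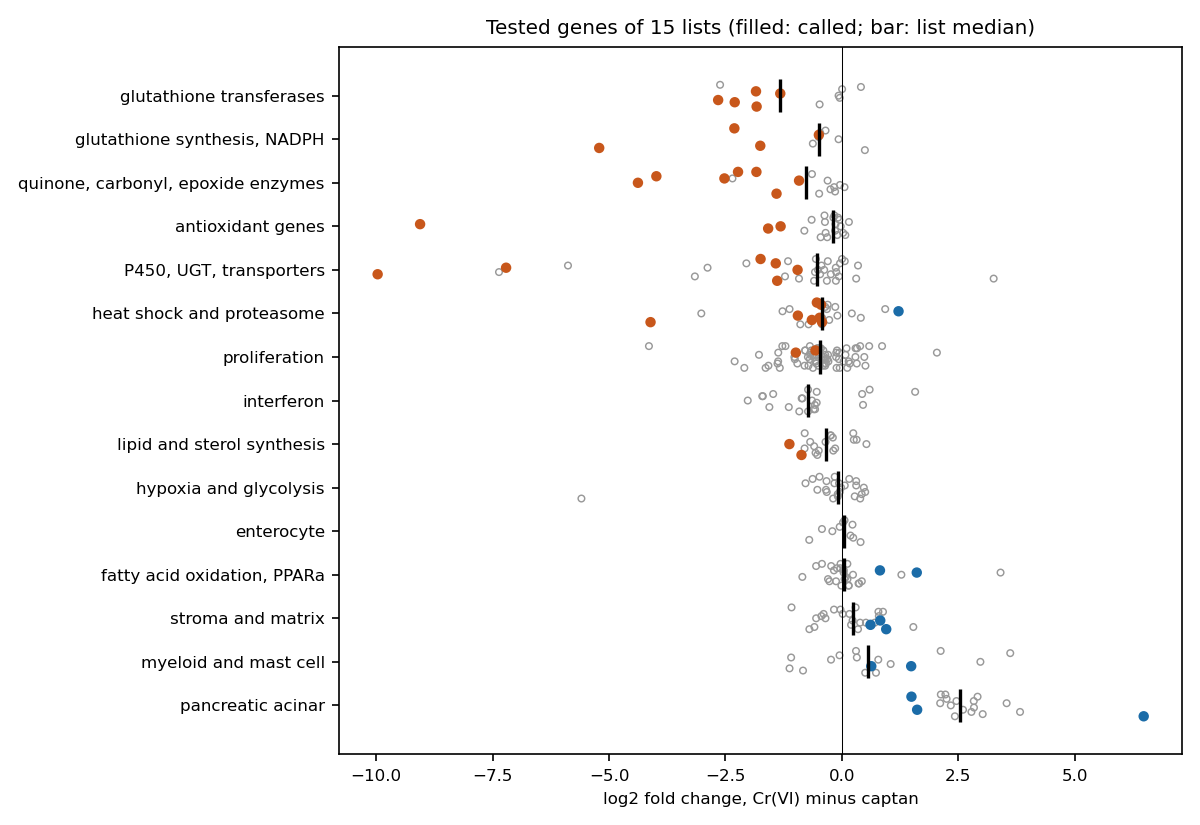
Log2 fold change (Cr(VI) minus captan) of every tested gene in 15 lists; filled points were called (blue higher, orange lower after Cr(VI)), open points were not, and the bar is the list median. The 5 detoxification lists hold orange and no blue points, and the acinar list lies wholly to the right of 0 with 3 of 18 genes called under TMM scaling.

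On the Cr(VI) side the largest fitted rises among calls were those of Gm5771, Egf and Prss1. Prss1, a trypsinogen, lay between 106 and 17964 CPM after Cr(VI) (median 10103) and had no counts in 4 of the captan libraries, with 641 CPM in captan replicate 7. It passed at adjusted p = 0.0146, as did the trypsinogen-like Gm5771 at adjusted p = 0.00124; trypsin genes are close copies, and their fitted fold changes of 6.48 and 7.85 log2 rest on captan libraries at or near 0. Of the 18 acinar genes all had positive log2 fold changes, and the median was 2.53. Prss1, Zg16 and Reg1 were called, beside 1.5% of all probes called higher. Zg16 is also made by goblet cells of the gut. In Cr(VI) replicate 5 it was 9708 CPM, among the captan libraries with few acinar counts (8427 to 10771 CPM), and in captan replicate 7 it was 44666 CPM, among the Cr(VI) libraries. With the acinar covariate Zg16 came to -0.10 and Reg1 to -0.0342 log2, and either call was lost on leaving out any 1 of 8 of the 14 libraries. The acinar percentage counts Prss1, Zg16 and Reg1 themselves, so a fall with that covariate is partly built in for them. Prss1 came to 3.91 log2 with the covariate and did not pass. Without the libraries above 50% acinar counts Zg16 came to 1.136, Reg1 to 0.808 and Prss1 to 7.852 log2. Prss1 passed in that setting, and Zg16 and Reg1 did not.

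Several other calls were lost with the acinar covariate. Glul, glutamine synthetase, lay between 153 and 512 CPM after Cr(VI) (median 279) and between 62 and 189 CPM after captan (median 84.2), at 1.598 ± 0.41 log2 and adjusted p = 0.0164, a call lost without Cr(VI) replicate 7. Cr(VI) replicate 5 and captan replicate 2, at 153 and 189 CPM, overlapped. Slc27a1, a fatty acid transporter, differed by 1.61 ± 0.38 log2 with adjusted p = 0.00538; it was lowest among the Cr(VI) libraries in replicate 5, at 44.9 CPM, where acinar counts were fewest. With the covariate Glul and Slc27a1 came to 0.34 and 0.28 log2 and did not pass. Without the libraries above 50% acinar counts they came to 1.13 and 1.05 log2, again without passing. Calcoco1, an autophagy receptor, went from 0.997 ± 0.18 log2 (adjusted p = 0.000395) to 0.61 without passing. Without the libraries above 50% acinar counts Calcoco1 came to 0.74 log2 and did not pass. The part of the acinar share in these genes was not tested. For Calcoco1, Cr(VI) replicate 5, at 296 CPM, lay among the other Cr(VI) libraries. Captan replicate 7, at 125 CPM, lay below all of them. Egf had between 1 and 72 counts in the Cr(VI) libraries, 1 count in captan replicate 7 and none in the other captan libraries, and it too lost its call with the covariate (adjusted p = 0.00779 before it). In control Egf had no counts in 2 of 5 libraries.

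For Erbb3, Ddr1 and Relb, Cr(VI) replicate 5 lay among the other Cr(VI) libraries, and captan replicate 7 lay below all of them. The part of the acinar share in these genes was not tested either. Erbb3, a partner in the EGF receptor family that signals through PI3 kinase, lay between 4736 and 5931 CPM after Cr(VI) (median 5576), between 1741 and 4127 CPM after captan (median 2581) and between 2285 and 4958 CPM in control. The exposed groups did not overlap, and the difference was 1.04 ± 0.15 log2, or 2.06-fold, with adjusted p = 1.88e-05. Cr(VI) replicate 5, low in acinar counts, was at 5677 CPM, and captan replicate 7, high in them, was at 1741 CPM. With the covariate the value was 1.22 log2 and without libraries above 50% acinar counts 1.02, and it passed in both; scaled by library totals it was 0.25 and did not pass. Against control the Cr(VI) group was higher by 0.52 ± 0.17 log2 (adjusted p = 0.053) and the captan group lower by the same estimate, -0.52 ± 0.17 (adjusted p = 0.0468).

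Ddr1, a collagen receptor kinase of epithelia, lay between 94.7 and 223 CPM after Cr(VI) (median 185) and between 33.1 and 140.2 CPM after captan (median 66.9). Cr(VI) replicate 4 and captan replicate 2 overlapped, and the remaining libraries of each group were apart. The log2 fold change was 1.28 ± 0.26 with adjusted p = 0.00113, and Cr(VI) replicate 5 stood at 185 CPM and captan replicate 7 at 53.1 CPM. Relb, a subunit of the alternative NF-kB pathway, lay between 235 and 542 CPM after Cr(VI) (median 301) and between 119.8 and 233 CPM after captan (median 161), without overlap. It differed by 0.97 ± 0.20 log2 with adjusted p = 0.00146. Among 33 inflammation genes, whose median was 0.12, it was the only call, beside 1.5% of all probes called higher. Both genes passed with the covariate (1.46 and 1.16 log2) and without the libraries above 50% acinar counts (1.43 and 1.08), and neither passed by library totals (0.50 and 0.18).

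Ppara, the nuclear receptor for fatty acids, ran from 128 to 229.5 CPM after Cr(VI) (median 176), from 78.2 to 130.4 CPM after captan (median 93.5) and from 64.9 to 124 CPM in control. Only Cr(VI) replicate 7 and captan replicate 6 overlapped, at 128 and 130.4 CPM. The difference was 0.82 ± 0.18 log2 with adjusted p = 0.00297; against control it was 0.86 ± 0.20 after Cr(VI), which passed, and 0.04 ± 0.20 after captan. Cr(VI) replicate 5 was at 163 CPM. Ppara no longer passed with the covariate (0.72 log2), without the libraries above 50% acinar counts (0.78) or by library totals (0.05). With Slc27a1, Ppara made 2 higher calls of 28 fatty acid oxidation genes, whose median was 0.05, beside 1.5% of all probes called higher. Dio1, the thyroid hormone deiodinase, lay between 67.9 and 215 CPM after Cr(VI) and between 9.2 and 136 CPM after captan, at 1.45 ± 0.39 log2 and adjusted p = 0.0186, lost on leaving out any 1 of 3 libraries (Cr(VI) replicate 7, captan replicates 4 and 5). Dio1 did not pass with the covariate (1.68 log2), without the libraries above 50% acinar counts (1.30) or by library totals (0.64).

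**Figure D5:**
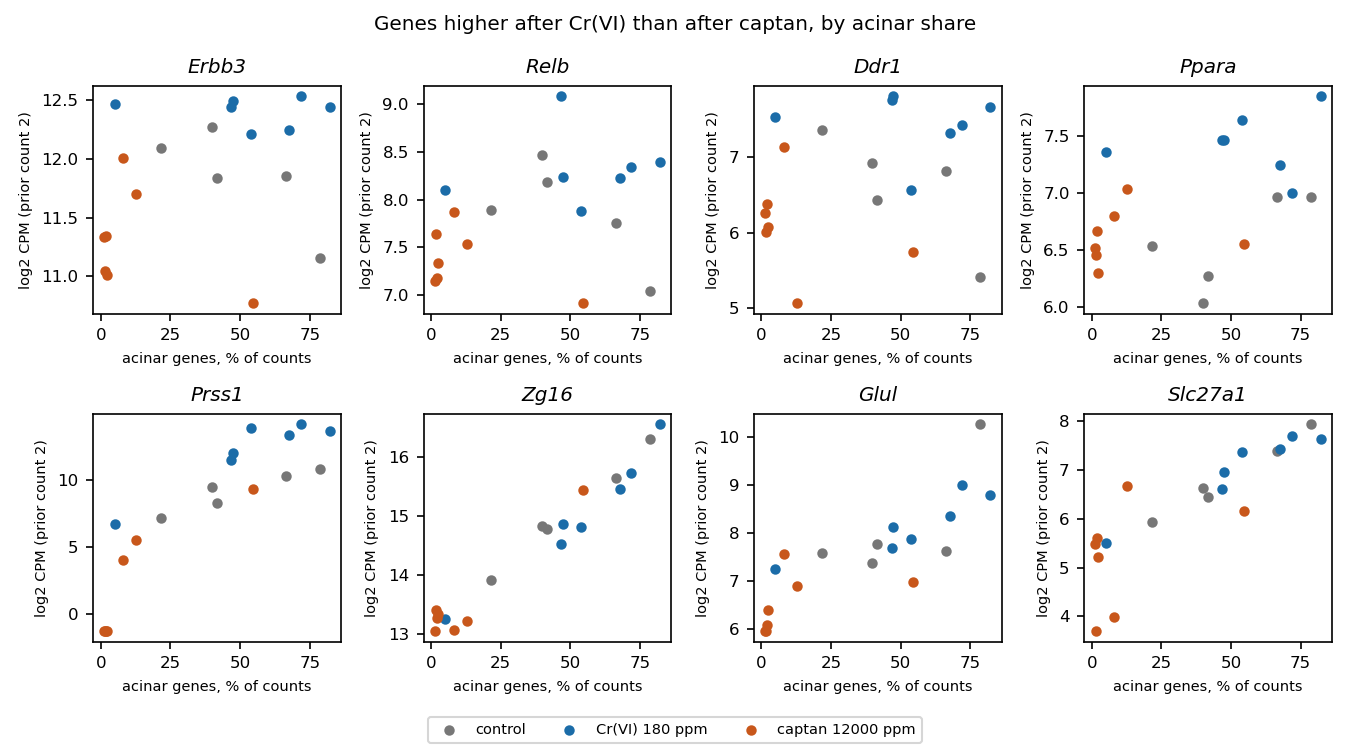
Log2 CPM (prior count 2) of 8 genes called higher after Cr(VI) under TMM scaling, against the percentage of counts from 18 acinar genes; each point is 1 library. Prss1, Zg16, Glul and Slc27a1 are higher in libraries with more acinar counts, while for Erbb3 and Relb the Cr(VI) library at 4.95% lies with the other Cr(VI) libraries and the captan library at 54.5% is the lowest of its group. Prss1 and Zg16 are among the 18 genes, so their rise with the percentage is partly built in.

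Fkbp5, a glucocorticoid-induced co-chaperone, lay between 1701 and 2694 CPM after Cr(VI) (median 2148) and between 329.7 and 2525 CPM after captan (median 484). Captan replicates 2 and 6, at 2525 and 1524 CPM, stood above the other 5 captan libraries, which ran up to 687 CPM. Control libraries lay between 788 and 1793 CPM. The call, 1.22 ± 0.34 log2 with adjusted p = 0.028, was lost on leaving out any 1 of 8 of the 14 libraries. Fkbp5 did not pass with the acinar covariate (0.98 log2), without the libraries above 50% acinar counts (0.94) or by library totals (0.34). It was the only call among 12 glucocorticoid and clock genes, beside 1.5% of all probes called higher. The clock output gene Dbp was 979 to 2348 CPM after Cr(VI) and 453 to 1100.03 CPM after captan. Dbp did not pass (0.77 ± 0.27 log2, interval 0.22 to 1.31, adjusted p = 0.0995).

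Among macrophage and matrix genes, Lyz2, the lysozyme of macrophages, which shares near-identical sequence with the Paneth cell gene Lyz1, lay between 505 and 1609.6 CPM after Cr(VI) (median 639) and between 151 and 415 CPM after captan (median 296). The groups did not overlap, at 1.49 ± 0.32 log2 and adjusted p = 0.00335. C1qc, a complement chain made by macrophages, ran from 139.5 to 234 CPM after Cr(VI) and from 96.5 to 138 CPM after captan, again without overlap, at 0.63 ± 0.19 log2 and adjusted p = 0.0351 under TMM and -0.04 by library totals; leaving out any 1 of 9 libraries ended the call. Of 16 myeloid and mast cell genes these 2 were called, beside 1.5% of all probes called higher, and the median was 0.57. Their summed level over the list was 1788 to 3775 CPM after Cr(VI), 1352 to 1831 CPM after captan and 1167 to 3159 CPM in control.

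Of 25 stroma and matrix genes 3 were higher and none lower, with a median of 0.23. Over all probes 1.5% were called higher and 3.15% lower. The collagens Col6a3 (0.83 ± 0.24 log2) and Col4a2 (0.62 ± 0.18, and -0.25 by library totals) and the fibrillin gene Fbn1 (0.95 ± 0.27) had adjusted p = 0.0319, 0.0281 and 0.0244, and each was lost on leaving out any 1 of 6 of the 14 libraries. Col6a3 and Col4a2 did not overlap between the exposures, and Fbn1 was 108 CPM in captan replicate 1 against 34.3 to 47.8 CPM in the other captan libraries. Against control it was the captan group that was lower, by -1.29 ± 0.26 log2 for Col6a3 and -1.21 ± 0.29 for Fbn1, which passed, and by -0.69 ± 0.20 for C1qc, which passed too. None of these 5 genes passed with the acinar covariate or without the libraries above 50% acinar counts, where the values were 1.08 and 1.31 log2 for Lyz2, 0.63 and 0.68 for C1qc, 0.78 and 0.68 for Col6a3, 0.59 and 0.27 for Col4a2, and 0.90 and 0.63 for Fbn1. Pik3ca, a catalytic subunit of PI3 kinase, had a TMM value of 0.60 ± 0.18 log2 with adjusted p = 0.0408, lost on leaving out any 1 of 9 libraries, and -0.16 by library totals. It came to 0.71 log2 with the acinar covariate and 0.74 without the libraries above 50% acinar counts, and passed in neither. The less abundant Pik3ca probe was at 0.30 ± 0.26 log2 and did not pass.

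Lymphocyte genes differed in 1 of 15 tested, beside 4.64% of all probes called in either direction. Gzma, a granzyme of cytotoxic lymphocytes, lay between 23.3 and 71.8 CPM after Cr(VI) (median 24.5), between 65.7 and 500.00 CPM after captan (median 93.6) and between 93.1 and 422 CPM in control. Only Cr(VI) replicate 5 and captan replicate 6 overlapped. The difference was -2.19 ± 0.48 log2 with adjusted p = 0.00379; against control it was -2.62 ± 0.51 after Cr(VI), which passed, and -0.43 ± 0.50 after captan, which did not. The summed level of the list was 609 to 1071 CPM after Cr(VI), 556 to 1062 CPM after captan and 938 to 1188 CPM in control. With the acinar covariate Gzma came to -1.31 log2, and without the libraries above 50% acinar counts to -1.97, and it passed in neither. Interferon-response genes had a median of -0.72, with 17 of 21 negative and none called; Igtp, an interferon-induced GTPase named here after its value was seen, passed (adjusted p = 0.0213) with a captan median of 17.9 CPM and 1 captan library at 1394 CPM.

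Bnip3 and Car9 passed against control after both agents and did not differ detectably between them. Bnip3, a mitophagy receptor induced by hypoxia, was 33.3 to 124 CPM after Cr(VI) (median 91.4), 36.2 to 115 CPM after captan (median 65.6) and 0 to 49.6 CPM in control. The direct difference was 0.16 ± 0.35 log2 (interval -0.55 to 0.87). Car9, a carbonic anhydrase induced by hypoxia, differed by 0.28 ± 0.21 (interval -0.15 to 0.71), and the angiogenic factor Vegfa by 0.50 ± 0.24 (interval 0.01 to 0.99, adjusted p = 0.261); Vegfa passed against control after neither agent, at 0.22 ± 0.27 log2 after Cr(VI) and -0.28 ± 0.26 after captan. None of the 25 hypoxia and glycolysis genes was called between the exposures, beside 4.64% of all probes called in either direction. The list median was -0.08.

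Klf4, a transcription factor of differentiated villus cells, was 234 to 509.9 CPM after Cr(VI), 305 to 477 CPM after captan and 37.8 to 240.2 CPM in control, with a direct difference of -0.20 ± 0.21 (interval -0.64 to 0.23). The apolipoprotein Apoa1 differed by 0.19 ± 0.20 (interval -0.22 to 0.59) and the lipid regulator Creb3l3 by 0.37 ± 0.15 (interval 0.07 to 0.67, adjusted p = 0.138). Cd74, which chaperones MHC class II molecules, was 2666 to 5523 CPM after Cr(VI) and 3306 to 8147 CPM after captan, below the 8371 to 25588 CPM of control, and differed by -0.20 ± 0.27 (interval -0.75 to 0.34). The smooth muscle gene Acta2 differed by 0.02 ± 0.20 (interval -0.38 to 0.42), Flna by -0.48 ± 0.28 (interval -1.04 to 0.09), the immediate early gene Fos by 0.35 ± 0.21 (interval -0.07 to 0.77) and metallothionein Mt1 by -0.02 ± 0.63 (interval -1.30 to 1.25). These intervals still allow differences, of over 2-fold for Mt1 in either direction.

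No gene was called between the exposures among 10 enterocyte genes, 11 crypt and WNT genes, 21 genes of the TCA cycle and respiration, 23 apoptosis genes, 7 smooth muscle genes, 4 MHC class II genes or 17 cytoskeleton genes. Their median log2 fold changes were 0.04, 0.11, -0.12, 0.05, 0.02, 0.00 and 0.27, beside -0.07 over all tested genes. Of all probes 4.64% were called in either direction, and lists this short can hold no call at that share. Over all 2541 probes 435 had an unadjusted p under 0.05 and 192 an adjusted p under 0.1.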

How the data were processed

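TempO-Seq counts of duodenum sections were used. The authors deposited whole-number counts for 3045 probes of 2756 symbols (289 with 2 probes), with no normalization visible in the table. Named in the submitters' processing notes are bcl2fastq 2.17.1.14, Bowtie and the mm9 build, with no roles; positions of the probes were not used here. Columns were matched to samples by title, and replicate numbers only name libraries. Of the values 28.5% were 0 and 1.01% of those above 0 lay from 1 to 5, so low counts may have been removed and a 0 says little of a low transcript. No molecular identifiers are given.

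In R 4.3.3 with edgeR 4.0.16, filterByExpr (minimum count 10, minimum total 15) kept 2541 probes, scaled by TMM. All 40 libraries entered a single robust quasi-likelihood fit with a mean for every group (34 residual degrees of freedom). Tests were 2-sided, with Benjamini-Hochberg adjustment over all probes and calls at 0.05. Standard errors are the log2 fold change over the square root of F, and intervals are 95%. CPM were computed on TMM-scaled sizes, and log2 CPM with a prior count of 2. For genes with 2 probes, values are those of the more abundant probe. In 3 simulations with 200 changed probes of 2541, 34% of 2-fold and 57% of 4-fold changes were recovered, with 7.14% false calls. Alternatives used limma 3.58.1, DESeq2 1.42.0, other scalings, filters and libraries.

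The members, the 34 gene lists and the named genes were chosen with earlier results of these data known. Named are the 10 largest rises and falls among calls whose 7 libraries all lie on 1 side of the other group's mean, up to 4 called members of each list, and 33 genes of textbook roles or earlier results; others are given after their values were seen. Promoter windows come from a RefSeq table; 155 symbols had no match in the RefSeq gene table.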

Additional observations from a re-analysis of the deposited data

Results flagged for a closer look

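Of 148 groups of libraries checked, 17 held a highest or lowest library whose distance from its nearest neighbour exceeded the 95% limit of Dixon's test (0.568 of the range for 7 libraries); chance gives about 1 in 20. Values are log2 CPM. Captan replicate 7 stood alone in its acinar share (54.5%), in Zg16 (15.45), in Egf (-0.52) and in Rrm1 (8.31), each the highest of its group. Cr(VI) replicate 5, with the fewest acinar counts of its group, was lowest in Prss1 (6.73), Egf (-0.87) and Ces1g (3.37). Cr(VI) replicate 3, with the most, was highest in Col6a3 (7.52) and lowest in Cyp2b10 (10.68) and Gsr (8.06). Cr(VI) replicate 4 was lowest in Ddr1 (6.57) and Creb3l3 (11.74). Cr(VI) replicate 6 was lowest in Psmd14 (5.69) and highest in Relb (9.08). Cr(VI) replicate 2 was highest in Cdkn1a (8.64), captan replicate 1 in Fbn1 (6.76) and captan replicate 2 in Vegfa (8.02).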

How the results depend on the processing

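The total of 118 calls (38 higher, 80 lower) became 45 (13 and 32) with the acinar percentage as a covariate, and 32 of the 118 were kept. It became 26 (11 and 15) without libraries above 50% acinar counts, which removes 4 Cr(VI) and 1 captan library of the 14, with 18 kept. By library totals it was 504 (8 and 496), with 84 kept, and by DESeq2 185 (83 and 102), with 114 kept. The other settings stayed within 1.5 times: DESeq2 size factors in edgeR gave 119, limma-voom 96 and the 14 libraries alone 86. Leaving out 1 library gave 88 to 137 calls, 21 to 45 higher and 64 to 96 lower. Higher calls fell most without captan replicate 5 (21), captan replicate 4 (25), Cr(VI) replicate 7 (24) or Cr(VI) replicate 3 (25). Of 56 named calls 36 held in all 14 omissions and 20 were lost in at least 1; without captan replicate 7, Prss1 moved from 6.48 to 9.78. Direction reversed by library totals for C1qc (-0.04), Col4a2 (-0.25), Herpud1 (-0.16) and Pik3ca (-0.16), and with the covariate for Reg1 (-0.0342) and Zg16 (-0.10). Reg1 and Zg16 are themselves counted in the acinar percentage. For library totals the shift of the median to -0.78 is part of the setting; elsewhere the cause was not tested. Cyp2a5, Hmox1, Ereg and Egf had whole groups at or near 0, where no fold could be set; the part of depth in this was not tested. No paired analysis was possible because the labels give no replicate numbers.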
